A study of Mus musculus with 2 samples.

Results

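Divergent coding gene promoters were examined as places where a pair of protein-coding genes on opposite strands start from a shared stretch of DNA and are read away from each other. A pair was taken from the mm9 gene annotation when the outermost 5′ start sites diverged and lay at most 1000 bp apart, and its window was the stretch between the start sites plus 500 bp on each side. The annotation held 808 such pairs, formed by 1599 of 22367 protein-coding genes (7.15%), 17 of which belonged to 2 pairs. Broad ATAC-seq peaks overlapping these windows numbered 760 of 90445 in the control list (0.840%) and 754 of 71282 in the Taf4-inactivated list (1.06%). The start sites were 1 to 987 bp apart, with a median of 141 bp and quartiles of 73 and 271 bp.

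ATAC-seq, in which a transposase cuts open DNA and tags it for sequencing, was performed on enteroids, epithelial cultures grown here from crypts of the ileum of C57Bl6/129sv mice aged 4 months. Both genotypes carried floxed Taf4 alleles (Taf4 lox/lox), Taf4 being a subunit of TFIID, a general initiation factor of RNA polymerase II, and both received 1 µM 4-hydroxytamoxifen (4-OHT) for 3 days. Inactivated enteroids (labelled KO) also carried VilCreER T2, a tamoxifen-inducible Cre driven by the epithelial Villin promoter, which control enteroids (labelled WT) lacked. There was 1 library per genotype, so no difference below was tested against replicate spread, and every comparison describes these libraries.

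Divergent, or head-to-head, promoters are common in mammalian genomes and are typically rich in CpG dinucleotides and poor in TATA boxes. Many serve housekeeping genes for DNA repair, replication, mitochondrial function and RNA metabolism, and clustered histone genes are often arranged in the same way. TFIID recognises core promoters and helps place the polymerase at start sites, at promoters with and without a TATA box.

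The stretches between the start sites of 7 pairs are shown because they span the range of results described further on. Pms1/Ormdl1 and Mttp/Rg9mtd2 were among the strongest peaks of both lists, Trmt6/Mcm8 carried a gene of DNA replication and repair, and Hist1h2ac/Hist1h2bc was a histone pair with strong peaks. Hist1h2bq/Hist1h2ao had no peak, Mtcp1/Brcc3 had a peak in the Taf4-inactivated list alone and Sgce/Peg10 in the control list alone. Each is written 5′ to 3′ on the plus strand of mm9, so that the minus-strand gene, named first, starts at the left end and the plus-strand gene at the right end. Capitals mark exact matches on either strand to the CCAAT box (CCAAT), the GC box (GGGCGG), the ETS core (CCGGAA) and the TATA box (TATAAA). The 2 ETS core matches in Trmt6/Mcm8 overlap each other on opposite strands.
Pms1/Ormdl1 (chr1:53353862-53353939): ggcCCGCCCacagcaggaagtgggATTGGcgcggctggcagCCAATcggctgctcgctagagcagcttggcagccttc
Mttp/Rg9mtd2 (chr3:137806352-137806412): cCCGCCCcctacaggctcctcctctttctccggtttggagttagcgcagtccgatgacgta
Trmt6/Mcm8 (chr2:132641791-132641877): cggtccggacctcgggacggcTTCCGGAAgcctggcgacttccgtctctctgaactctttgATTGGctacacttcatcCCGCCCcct
Hist1h2ac/Hist1h2bc (chr13:23775817-23776068): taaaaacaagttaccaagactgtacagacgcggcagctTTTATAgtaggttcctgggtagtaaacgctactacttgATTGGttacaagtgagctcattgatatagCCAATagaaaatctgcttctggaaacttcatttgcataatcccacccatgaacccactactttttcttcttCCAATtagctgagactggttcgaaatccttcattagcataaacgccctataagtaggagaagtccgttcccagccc
Hist1h2bq/Hist1h2ao (chr13:21902068-21902236): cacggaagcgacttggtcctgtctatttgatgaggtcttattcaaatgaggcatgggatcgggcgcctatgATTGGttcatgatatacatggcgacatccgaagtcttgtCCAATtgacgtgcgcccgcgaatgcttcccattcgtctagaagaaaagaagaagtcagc
Mtcp1/Brcc3 (chrX:72661927-72661967): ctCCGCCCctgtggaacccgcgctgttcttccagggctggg
Sgce/Peg10 (chr6:4697204-4697306): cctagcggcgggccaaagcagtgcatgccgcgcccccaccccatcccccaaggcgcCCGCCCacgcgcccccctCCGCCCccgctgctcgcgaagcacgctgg
The CCAAT box was found in 4 of these 7 stretches and the GC box in 5. Hist1h2ac/Hist1h2bc was the only one of the 7 with a TATA box, lying at position 39 from the left end, and it also held 3 CCAAT boxes. The Sgce/Peg10 stretch had the highest GC content of the 7 (78.6%) and the Hist1h2ac/Hist1h2bc stretch the lowest (41.7%).

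The shared promoters were open in nearly all pairs of both genotypes. In control enteroids 775 of 808 pairs overlapped a peak (95.9%, exact Clopper-Pearson 95% confidence interval 94.3 to 97.2%), and in Taf4-inactivated enteroids 771 did (95.4%, 93.7 to 96.8%). Both lists had a peak at 762 pairs (94.3%), the control list alone at 13, the Taf4-inactivated list alone at 9 and neither at 24. Single start sites were also given 500 bp on each side. The control list alone then had a peak at 1.69% of divergent coding genes and 6.17% of coding genes without a divergent partner. The Taf4-inactivated list alone had one at 1.31% and 3.30%. Intervals here and below cover counting error only. With only peaks of −log10 q of at least 5 kept, 8 pairs had a peak in the control list alone and 133 in the Taf4-inactivated list alone. Over all peaks the upper quartile of −log10 q was 3.00 in control and 5.76 in Taf4-inactivated enteroids. This threshold thus kept a larger part of the whole Taf4-inactivated list. Pdzd7/Sfxn3 and Btf3l4/Txndc12, both 987 bp apart, were the widest pairs inside the distance limit and had a peak in both lists, and Nacc1/Trmt1, just outside it at 1004 bp, had 2 peaks in each list.

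A single peak usually stretched over both start sites. This was so at 720 pairs in control (89.1%, 86.8 to 91.2%) and at 734 in Taf4-inactivated enteroids (90.8%, 88.6 to 92.7%). Separate peaks over each start site were seen at 0 of 808 pairs in either list (upper limit 0.456%). The narrowest member peaks were 200 bp wide and the start sites a median of 141 bp apart. Separate peaks thus had little room at most pairs, and the 0 says little there. Only 1 start site lay under a peak at 36 control and 25 Taf4-inactivated pairs. With start sites 1 to 100 bp apart, 94.6% of 298 pairs in control and 96.6% in Taf4-inactivated enteroids had 1 peak over both. With start sites over 500 bp apart, 63.9% of 83 pairs did in each list (52.6 to 74.1%). Peaks widened with the distance they spanned, from a control median of 1033 bp in the closest of 4 distance classes to 1532 bp in the farthest, and from 1016 to 1419 bp after inactivation.

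Averaged over pairs, with left and right set by the genomic strand, the intervals were centred between the genes. Single peaks often reached farther to one side. Control peaks over both start sites reached a median of 430 bp into the minus-strand gene and 464 bp into the plus-strand gene, and Taf4-inactivated peaks reached 416 and 430.5 bp. The peak centre lay a median of 129 bp from the midpoint between the start sites in control, and 118 bp from it after inactivation. The longer reach was at least 2 times the shorter in 308 of 720 control peaks and 316 of 734 Taf4-inactivated peaks. Of the 703 pairs with such a peak in both lists, the same gene had the longer reach in both in 551 (78.4%). The offset from the midpoint had a Pearson's r of 0.697 and a Spearman's rho of 0.701 between lists over these 703 pairs, which share the genomic sequence and its mappability.

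**Figure D1:**
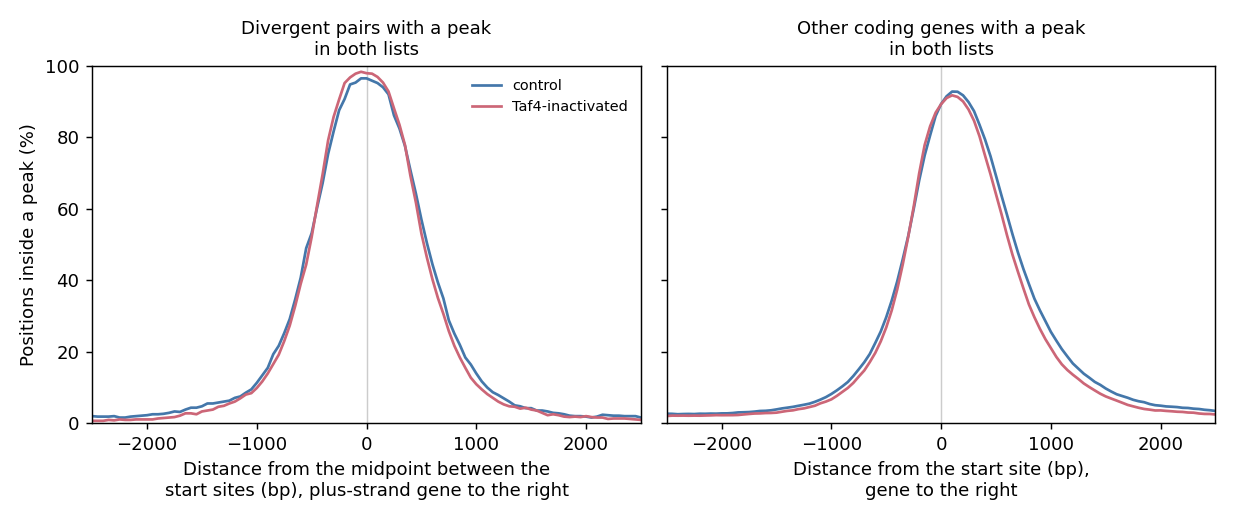
Share of positions inside a peak (vertical axis, %) against distance in bp from the midpoint between divergent start sites (left, 762 pairs with a peak in both lists) and from the start site of other coding genes (right, 10774 genes with a peak in both lists), with 1 line per library. Average coverage at divergent pairs was 53.1% at 500 bp to the left and 57.0% at 500 bp to the right in control. At other coding genes it was 29.7% upstream and 69.2% inside the gene. Left and right at divergent pairs follow the genomic strand, so the average does not show the asymmetry of single pairs.

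The average coverage around divergent midpoints was set beside that around the start sites of other coding genes. Both sides of a divergent midpoint lead into a gene, and the genomic strand alone decides which gene lies left. The average over pairs therefore evens out the sides and does not show the asymmetry of single pairs. At 500 bp upstream of other coding genes 29.7% of control and 26.8% of Taf4-inactivated positions lay inside a peak, against 69.2% and 64.0% at 500 bp downstream. At divergent pairs control gave 53.1% and 57.0% at 500 bp to the left and right of the midpoint, and Taf4-inactivated enteroids gave 52.1% and 53.0%. At the midpoint itself, 96.5% of control and 97.9% of Taf4-inactivated pairs were covered.

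Start sites in divergent pairs were covered more often than those of other coding genes. Each start site was given an equal window of 500 bp on each side, and among all coding start sites 62.5% had a control peak there and 59.8% a Taf4-inactivated peak. Among the 1599 divergent coding genes the shares were 95.1% (93.9 to 96.1%) and 94.7% (93.5 to 95.8%). Among 503 coding genes divergent to a non-coding gene they were 86.7% and 84.3%, and among the 20265 other coding genes 59.3% and 56.5%. Both genes of a pair commonly share 1 peak, so these genes are not independent and the intervals are too narrow.

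**Figure D2:**
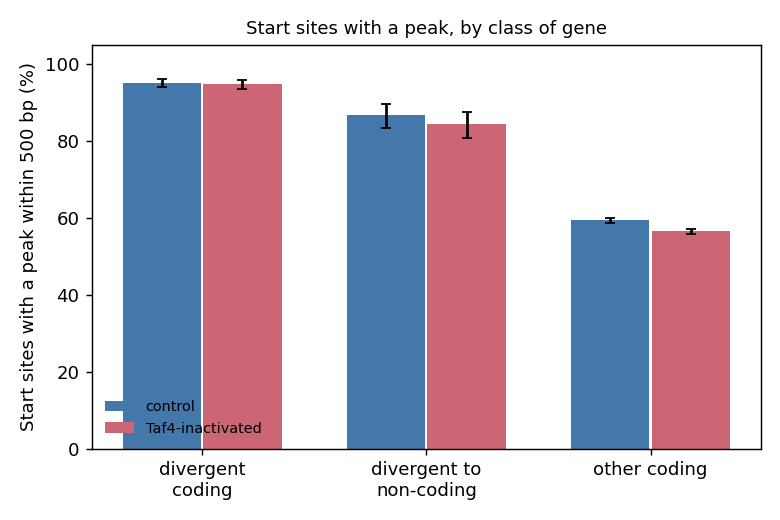
Share of start sites with a peak within 500 bp (vertical axis, %) for divergent coding genes, coding genes divergent to a non-coding gene and other coding genes, with exact 95% intervals as error bars and 1 bar per library. Divergent coding genes reached 95.1% and 94.7%, above the 59.3% and 56.5% of other coding genes.

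CpG content moved with this difference. The ratio of observed to expected CpG dinucleotides within 500 bp of the start site had a median of 0.774 at divergent coding genes and 0.494 at other coding genes, and GC content had medians of 59.8% and 54.0%. Other coding genes with a peak in both lists had a median CpG ratio of 0.727. Where the CpG ratio was 0.6 or more, the share of start sites with a peak in control was 98.0% of 1346 divergent genes and 95.4% of 8473 other genes. Between 0.4 and 0.6 it was 95.2% of 166 divergent genes (90.7 to 97.9%) and 68.6% of 2983 other genes (66.9 to 70.2%). Below 0.4 it was 50.6% of 87 divergent genes (39.6 to 61.5%) and 21.5% of 8809 other genes (20.6 to 22.4%). In Taf4-inactivated enteroids the same 3 classes gave 98.0%, 95.2% and 43.7% at divergent genes and 94.7%, 63.9% and 17.2% at other genes. The part of CpG content in the difference was not tested.

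**Figure D3:**
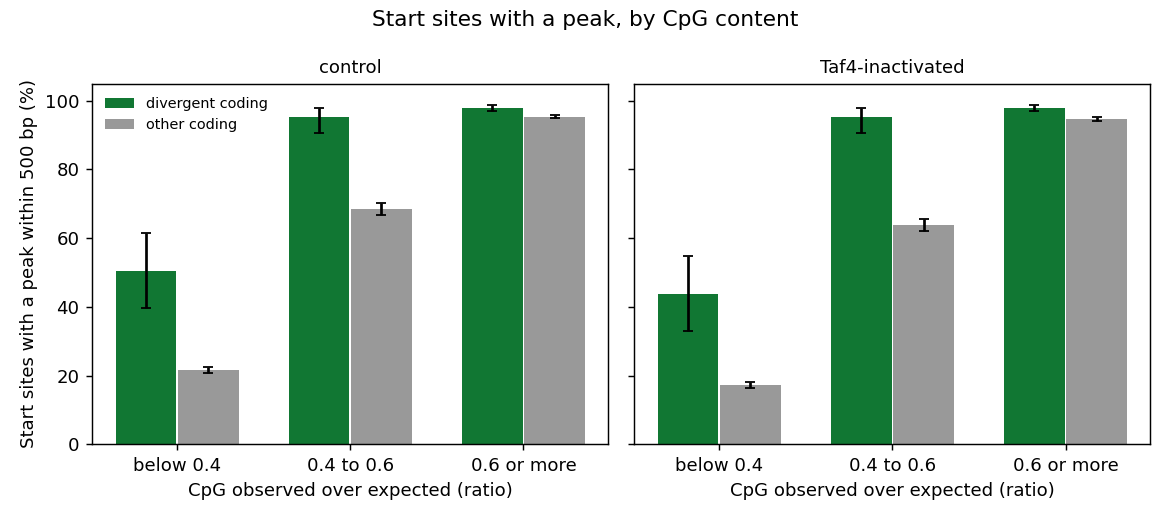
Share of start sites with a peak within 500 bp (vertical axis, %) by the ratio of observed to expected CpG dinucleotides around the start site (horizontal axis), for divergent and other coding genes in control (left) and Taf4-inactivated enteroids (right), with exact 95% intervals. The classes lay within 3 points of each other at high CpG in control (98.0% and 95.4%) and far apart between 0.4 and 0.6 (95.2% and 68.6%).

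Short promoter words also differed between the classes. In the stretch from 250 bases before to 50 bases after each start site, searched on both strands, the ETS core was present at 40.4% of divergent coding genes, 23.8% of other coding genes with a peak in both lists and 17.5% of all coding genes. The CCAAT box was present at 42.8%, 36.2% and 37.9%, and the GC box at 68.4%, 65.0% and 43.4%. The cyclic AMP response element TGACGTCA was found at 4.19%, 3.17% and 2.32%. The E-box CACGTG was found at 11.0%, 10.1% and 7.78%. The TATA box ran the other way, at 4.44%, 6.89% and 13.4%. Windows of close pairs overlap, so 1 match can count for both genes, and a match describes the sequence only.

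Peaks at divergent promoters ranked high in both lists. The fold enrichment of a peak is relative to the background of its own library, so each peak was also given its percentile of fold within its list. In control the median percentile was 93.0 with a median fold of 2.73, and after inactivation 89.4 with a fold of 3.65. The same medians were 85.5 and 80.2 for the start site peaks of other coding genes. The top 10% of the list by fold held 60.8% of the member peaks in control (57.2 to 64.3%) and 48.3% in Taf4-inactivated enteroids (44.7 to 51.9%). The lists differ in length (90445 and 71282 peaks), so a percentile does not stand for the same number of peaks in both. With the 40000 peaks of highest fold per list, 86.5% of pairs had a peak in control and 91.5% after inactivation, the opposite order. Control member peaks had a median width of 1152 bp and Taf4-inactivated ones of 1122.5 bp, against 584 and 530 bp over all peaks.

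The 5 pairs with the highest mean percentile had peaks of at least the 99.6th percentile in both lists. Rpa3/Gm16039 led them, with a fold of 4.28 in control and 5.69 in Taf4-inactivated enteroids. Rpa3 encodes a subunit of replication protein A, which coats single-stranded DNA. Pms1/Ormdl1 followed at 4.04 and 5.86, where Pms1 is a member of the mismatch repair family and Ormdl1 a regulator of sphingolipid synthesis. Ppme1/C2cd3, with a phosphatase methylesterase and a centriole protein gene, had folds of 3.97 and 5.78, and Spcs2/Xrra1, with a signal peptidase subunit gene, 3.97 and 5.72. Mttp/Rg9mtd2 had folds of 4.26 and 5.48. Mttp encodes the microsomal triglyceride transfer protein, which enterocytes need to load lipid onto lipoproteins, and Rg9mtd2 a tRNA methyltransferase.

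With all deposited peaks and 1 bp of overlap, few peaks at divergent promoters lacked a partner in the other list. A partner was any peak with at least 1 bp of overlap, and 52.7% of all control peaks and 39.8% of all Taf4-inactivated peaks had none. Of the member peaks, 10 of 760 in control (1.32%, 0.633 to 2.41%) and 9 of 754 in Taf4-inactivated enteroids (1.19%, 0.547 to 2.25%) had none. When a partner had to overlap by 50% of both peaks, 9.21% and 8.49% had none, and with only peaks of −log10 q of at least 5 kept, 1.07% and 19.1% had none. The upper quartile of −log10 q over all peaks was 3.00 in control and 5.76 in Taf4-inactivated enteroids. Among start site peaks of other coding genes, with all deposited peaks and 1 bp of overlap, the shares without a partner were 9.20% and 5.13%. Peaks high in their list were the least often without a partner in each class. Above the 75th percentile of the control list, 2 of 612 member peaks (0.327%, 0.0396 to 1.18%) and 128 of 7318 start site peaks of other coding genes (1.75%, 1.46 to 2.08%) had no partner. Between the 50th and 75th percentile 2 of 81 (2.47%, 0.300 to 8.64%) and 288 of 1869 (15.4%, 13.8 to 17.1%) had none.

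Ranks were compared for 743 member peaks that overlapped each other best in both lists. The percentile after Taf4 inactivation minus that in control had a median of -1.62, against -2.98 over 42491 such pairs of all peaks. A rise of 25 points or more was seen at 43 member peaks (5.79%) against 10.4% of all peaks. A fall of 25 points or more was seen at 24 (3.23%) against 16.3%. Start site peaks of other coding genes gave 5.87% and 9.45%. A peak above the 75th percentile of the control list cannot rise by that much, and 81.7% of member peaks lay there against 42.9% of all peaks. Among those, 15 of 607 member peaks fell (2.47%), against 8.15% of the start site peaks of other coding genes and 17.2% of all peaks. Up to the 25th percentile of the control list, 22 of 35 member peaks rose (62.9%), against 38.7% and 32.5%. The percentiles of the 743 peaks had a Spearman's rho of 0.782 between lists, and those of all 42491 one of 0.726.

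**Figure D4:**
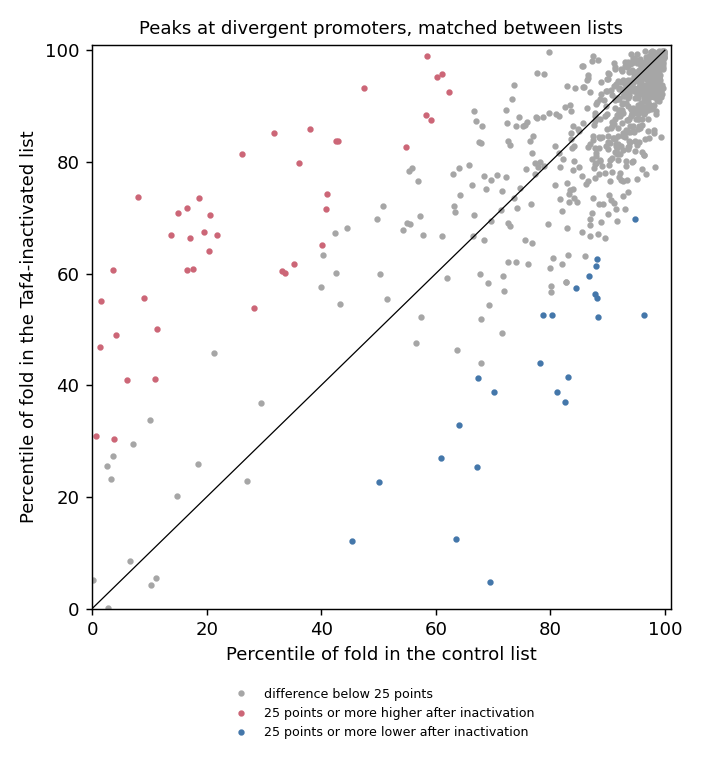
Percentile of fold within the control list (horizontal axis) and within the Taf4-inactivated list (vertical axis) for the 743 matched peaks at divergent promoters, 1 point per peak, with the line of equal percentile. Most points lie in the upper right corner, 43 red points lie 25 points or more above the line and 24 blue points 25 points or more below it.

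The count of rises depended on the value that was ranked. Ranked by the −log10 p of each peak, 18 member peaks rose by 25 points or more and 24 fell. The 43 peaks that rose by fold lay at a median percentile of 21.7 in control and 67.5 after inactivation, and 25 of the 43 had start sites at most 100 bp apart, as did 280 of all 743. The GC content of their windows had a median of 59.3%, against 59.7% where the difference was below 25 points.

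Among peaks overlapping by at least 50% of both, the largest rise was at Lyzl4/Vipr1, the latter encoding a receptor for vasoactive intestinal peptide. Its peak moved from percentile 3.61 to 60.6, a difference of 56.9 points by fold and 30.6 by −log10 p. Hras1/Lrrc56, with the gene of a small signalling GTPase, rose by 55.9 points by fold and 8.69 by −log10 p. Rps28/Ndufa7, which joins a ribosomal protein gene to a gene of respiratory complex I, rose by 55.2 and 34.0 points. Rfxank/2310045N01Rik, with a subunit of the factor that binds major histocompatibility class II promoters, rose by 55.2 and 22.3 points, and Lsm7/3110056O03Rik, with an Sm-like RNA-binding protein, by 54.8 and 16.9. All 5 kept their direction by −log10 p, and 2 of them, Lyzl4/Vipr1 and Rps28/Ndufa7, stayed above 25 points.

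The largest fall was at Gm10447/Shroom1, from percentile 69.4 to 4.84 (-64.5 points), where Shroom1 encodes a cytoskeletal protein. Smyd1/Cd8b1, a muscle histone methyltransferase and a T cell coreceptor gene, differed by -45.6 points, and Gabrg3/Gm9962, with a GABA receptor subunit, by -43.7. Tssk3/1700125D06Rik, with a testis kinase, differed by -42.4. Sec24a/Sar1b differed by -36.1 points by fold and -25.8 by −log10 p. Both its genes serve the COPII coat that carries cargo out of the endoplasmic reticulum, and Sar1b is needed for the export of chylomicrons from enterocytes. Its peaks were narrow, 383 bp in control and 245 bp after inactivation. Markers of other cell types at their own start sites gave 0 of 5 leukocyte genes with a peak in either list and 1 of 3 endothelial genes in both. Of 5 fibroblast and muscle genes, 3 had a peak in control and 2 after inactivation, and of 2 neuronal genes 1 did in both. Intestinal epithelial genes had a peak at 9 of 10 in control and 10 of 10 after inactivation.

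A few pairs had a peak in the control list alone. At 9 of the 13 the control peak overlapped no Taf4-inactivated peak at all. At Nt5c3l/Klhl10, Nup62cl/E230019M04Rik, Clmn/4930408O17Rik and Ntrk3/Gm9885 it did overlap one, outside the window. These are regions called in both lists and divided by the window edge. Nt5c3l/Klhl10 ranked highest of the 13, at the 89.5th percentile, but the nearest Taf4-inactivated peak ended 53 bp outside its window. Hspa1a/Hspa1l, a pair of Hsp70 chaperone genes, followed at 82.9 with a peak 340 bp wide over neither start site. Only 61.1% of the 32-base words in its window occur once in the mm9 genome, and the authors kept uniquely mapping reads alone. Nup62cl/E230019M04Rik ranked at 82.8, with the nearest Taf4-inactivated peak 422 bp outside its window. Sgce/Peg10, an imprinted pair expressed from the paternal allele, ranked at 77.2 with a peak over both start sites, and the nearest Taf4-inactivated peak lay 6551 bp outside the window. Bhmt2/Dmgdh, the latter a gene of dimethylglycine metabolism, ranked at 70.9, with a gap of 2179 bp. The other 8 pairs ranked from 3.86 to 61.5.

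Pairs with a peak in the Taf4-inactivated list alone included 1 of the strongest peaks of that list. Mtcp1/Brcc3 on chromosome X had a peak 702 bp wide over both start sites, with a fold of 4.79 (98.4th percentile) and a −log10 q of 14.7. Brcc3 encodes a deubiquitinase of DNA damage response complexes. The annotation holds 2 Mtcp1 genes here, so this 1 peak counted for 2 of the 9 pairs. The nearest control peak lay 75631 bp outside the window, within a stretch of 259 kb without any control peak that held 2 Taf4-inactivated peaks. Of the 32-base words in its window 89.7% were unique. 2010002M12Rik/Ifit1, with an interferon-induced gene, ranked at 78.2, and the nearest control peak lay 1861 bp away. Haghl/Ccdc78 ranked at 71.4, Mdh1b/Fastkd2, with a mitochondrial RNA-binding protein gene, at 70.8, and Zfp942/Zfp943, zinc finger genes with 49.9% unique words, at 69.3. The remaining 3 were Zfp944/Zfp758 at 65.5, Sncg/Mmrn2 at 9.78 and Lypd4/Dmrtc2 at 5.36. At Duox2/Duoxa2, a hydrogen peroxide-producing oxidase and its maturation factor, both lists had a peak in the window but these did not overlap each other.

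Of the 24 pairs without a peak, 8 had fewer than 50% unique words in their window, and 4 had none. All 7 pairs with under 10% unique words were among the 24, whereas 728 of 756 pairs with at least 90% had a peak in both lists. Hist1h2bq/Hist1h2ao, whose stretch is printed with the others, and Hist1h2ap/Hist1h2br had 0% unique words, and Gm11048/Defa3, which holds a Paneth cell defensin gene, had 8.43%. For these pairs no peak cannot be read as closed chromatin. Others were fully or nearly unique, among them Kirrel2/Nphs1 (100%), with the kidney slit diaphragm genes, Plcz1/Capza3 (99.8%), with genes of sperm, and Pecam1/Gm885 (92.0%), with an endothelial adhesion gene. Marcks/5930403N24Rik, also 100% unique, and Rnf151/Rps2 (94.8%) had no peak in their windows although Marcks and Rps2 are widely expressed genes. Peaks lay close by, however. The nearest was 352 bp (control) and 431 bp (Taf4-inactivated) outside the Marcks window, and 849 and 1038 bp outside the Rps2 window.

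Known head-to-head genes were looked up by name. Of 15 such pairs 6 met the rule, and the other 9 had outermost start sites that overlapped by 21 to 271 bp, so that they do not diverge in this annotation. All 6 had 1 peak over both start sites in both lists and ranked lower after inactivation by under 4 points. Of all 808 pairs, 703 had such a peak in both lists, and only 35.1% of the 743 matched member peaks ranked higher. Both traits were thus common among all members. Brca1/Nbr1 was at the 95.8th percentile in control and the 92.7th after inactivation, and Atm/Npat, joining a DNA damage kinase to a regulator of histone gene transcription, at 99.3 and 97.9. Mcm4/Prkdc, a replicative helicase subunit and a repair kinase, stood at 96.4 and 93.6. Gart/Son, with a purine synthesis enzyme and a splicing cofactor, stood at 98.4 in control and was 3.37 points lower after inactivation. Pdcd10/Serpini1 was at 99.8 and 98.8, and Mrps12/Sars2, which are both needed for mitochondrial translation, at 87.4 and 84.0.

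DNA replication and repair genes were common among divergent pairs and had strong peaks. Of 114 such coding genes, picked by gene symbol, 26 were in a pair (22.8%, against 7.15% of all coding genes). Genes of repair and DNA damage response outside the list, among them Rad17, Polk and Brcc3, also lay in divergent pairs, and Brcc3 had no control peak. All 25 pairs of the list had a peak in both lists, as did 94.3% of all pairs. Their median percentile was 96.4 in control and 93.6 after inactivation, against 93.3 and 89.6 over all pairs, and 0 of 25 changed by 25 points or more in either direction. Over all 743 matched member peaks 5.79% rose and 3.23% fell by that much, so a count of 0 among 25 pairs is near the background. Trmt6/Mcm8 was at 97.5 and 99.7, and Aimp2/Pms2 at 98.9 and 97.8. Hscb/Chek2, with a checkpoint kinase, was 10.9 points higher after inactivation, and Lig4/Abhd13, with the ligase of end joining, differed by -16.1.

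Mitochondrial genes were the longest of the 6 lists. The list was picked by the start of the gene symbol, so Cox4nb of Cox4nb/Cox4i1 was counted without regard to its function. Of 203 coding genes 42 were in a pair (20.7%). All 41 pairs had a peak in both lists, as did 94.3% of all pairs, with median percentiles of 92.1 and 87.8 and a median difference of -4.24. Rises of 25 points or more were seen at Rps28/Ndufa7 (55.2) and Vmac/Ndufa11 (26.5) and a fall at Zfp661/Mrps5 (-26.2), and 2 rises and 1 fall among 41 pairs are near the shares over all matched member peaks (5.79% and 3.23%). Uqcrh/Lrrc41, with a complex III gene, differed by -23.2 and Ndufa1/Rnf113a1 by -22.5. Of the 41 pairs 12 ranked higher after inactivation, beside 261 of the 743 matched member peaks (35.1%).

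Cytosolic ribosomal protein genes were the list with most rises for its size. They formed 8 pairs, 7 with a peak in both lists, and 3 of the 7 rose by 25 points or more, beside 5.79% of all matched member peaks. They were Rps28/Ndufa7 by 55.2, Rps27/Rab13 by 45.9 and Med22/Rpl7a by just the 25 points required. These 3 lay at percentiles of 16.6, 47.4 and 40.2 in control, where such rises were common among all member peaks. Up to the 25th control percentile 22 of 35 member peaks rose (62.9%), and from there to the 50th 14 of 24 (58.3%). The other 4 of the 7 ribosomal pairs ranked lower, from -3.92 at Rpl9/Lias to -21.4 at Zwilch/Rpl4. By −log10 p the rise was 34.0 points at Rps28/Ndufa7, 46.1 at Rps27/Rab13 and 2.20 at Med22/Rpl7a. Aminoacyl-tRNA synthetase genes, which charge tRNAs, formed 7 pairs, all with a peak in both lists, as had 94.3% of all pairs. Their median percentiles were 92.7 and 96.7. None of the 7 changed by 25 points, beside 5.79% that rose and 3.23% that fell over all matched member peaks.

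Clustered histone genes were most often paired, 27 of 67 (40.3%), in 14 pairs. Of these 11 had a peak in both lists, beside 94.3% of all pairs. Their peaks were narrow, with medians of 484 and 614 bp against 1141 and 1114 bp over all pairs. Hist1h2ac/Hist1h2bc ranked at 98.8 and 98.6 with peaks of 473 and 533 bp, and 45.2% of the words in its window were unique. Hist1h2an/Hist1h2bp moved from 79.8 to 99.7, and Hist1h2ae/Hist1h2bg from 78.9 to 95.7. The rise was 34.6 points at Gm17658/Hist1h4d, the only 1 of the 11 pairs to rise by 25 points or more, beside 5.79% of all matched member peaks. Unique words made up 45.2%, 43.3% and 83.8% of these windows, in the order named. Over the 11 pairs the median difference was 0.383, and 6 ranked higher, beside 35.1% of all matched member peaks. Hist2h2ac/Hist2h2be, of another cluster, differed by -23.3. The part of repeated sequence in the widths was not tested. The 1 pair of type IV collagen genes, Col4a4/Col4a3, which encode basement membrane chains, ranked at 88.3 in control and 67.0 after inactivation (-21.3).

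**Figure D5:**
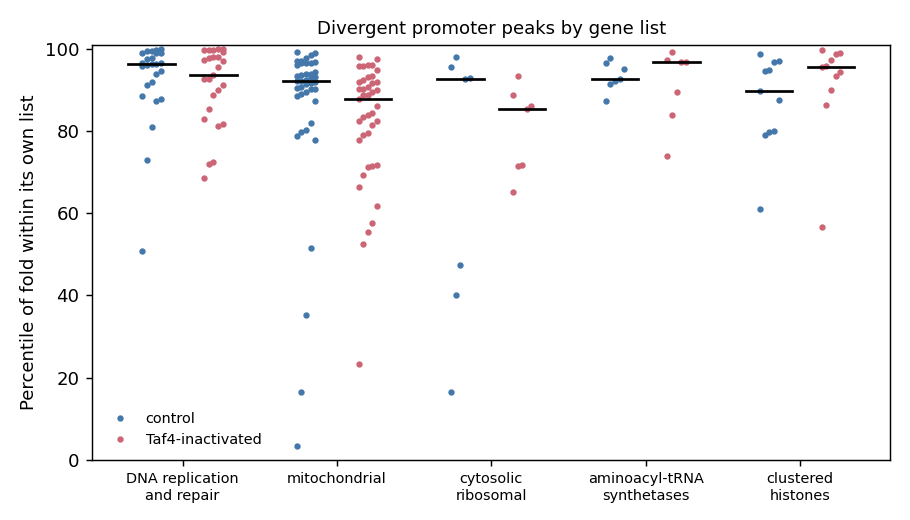
Percentile of fold within its own list (vertical axis) for divergent promoter peaks of 5 gene lists, 1 point per pair and library, with the median as a black bar. Replication and repair pairs lay high in both lists (medians 96.4 and 93.6), and 3 ribosomal pairs below the 50th percentile in control lay at 65.2 or higher after inactivation.

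The targeted gene, annotated as Taf4a, has its start site outside the divergent pairs. A peak lay over its start site in each library, with a fold of 2.22 (74.7th percentile) in control and 2.57 (58.7th percentile) in Taf4-inactivated enteroids. A peak at the start site does not report on deletion of the floxed exons. Taf4b, the paralog, was at the 99.0th and 99.5th percentile.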

How the data were processed

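Broad ATAC-seq peaks of enteroids with and without Taf4, 1 library of each labelled genotype, were analysed. The authors aligned reads to mm9 with Bowtie 1.0.0, discarded those with more than 1 place in the genome, and ran MACS2 2.1.1 in its broad mode per library. The deposited score was not used further. The deposited fold (a ratio to the background of the same library) and the −log10 p and −log10 q are averages over each peak, as the authors deposited them, and were used to describe, rank and filter peaks within a list. Sequencing depth and duplicate handling are not given in the sources used here, so list length and −log10 values may differ between libraries for that reason.

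Positions were converted to 1-based coordinates and set against NCBIM37 and the GENCODE vM1 annotation, with 0 peaks beyond a chromosome end. Each gene had 1 start site, its outermost 5′ end. Python 3.11.15, numpy 2.4.6, pandas 2.3.3, scipy 1.17.1, numba 0.67.0, pysam 0.24.0, samtools 1.23.1 and matplotlib 3.10.9 were used. Pair finding, overlap and start site calls were tested on simulated data, where all 100 simulated pairs were recovered. No p-value between genotypes was computed.

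The members, gene lists and alternatives were chosen with earlier results of these data known. Gene lists were set by gene symbol alone. Named pairs were 15 known head-to-head pairs, the 5 with the highest mean percentile, the 5 that rose and the 5 that fell most in rank among peaks overlapping by 50% of both, the 5 highest with a peak in 1 list alone, and pairs of 6 gene lists (some of the last and of those without a peak, and Duox2/Duoxa2, were picked after their values were seen). Alternatives changed the q threshold, list length, window, distance limit, start sites, overlap, ranking value and comparison genes.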

Additional observations from a re-analysis of the deposited data

How the results depend on the processing

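Of 80 values recomputed under alternatives, 40 stayed within their tolerance and 40 moved. The median rank difference stayed negative and the start site differences stayed positive. A share or count cannot itself reverse, but comparisons of such values did. Pairs with a peak in 1 list alone numbered 13 (control) and 9 (Taf4-inactivated) as reported. With −log10 q of at least 2 they numbered 16 and 28. Rises and falls of 25 points or more numbered 43 and 24 by fold, and 18 and 24 by −log10 p. No paired analysis was possible because each genotype had a single library, which also meant that no replicate could be left out. With peaks of −log10 q of at least 5, pairs with a peak fell to 71.3% in control and 86.8% in Taf4-inactivated enteroids, 1 peak over both start sites to 68.7% and 84.3%, and member peaks of the Taf4-inactivated list without a partner rose to 19.1%. Pairs with a peak in 1 list alone then numbered 8 for control and 133 for Taf4-inactivated, and divergent minus other coding start sites differed by 41.4 and 47.2 points (35.8 and 38.3 as reported). With −log10 q of at least 2, control pairs with a peak were 92.5%, Taf4-inactivated peaks without a partner 3.64%, Taf4-inactivated pairs alone 28, and the start site differences 39.5 and 41.7 points. With the 40000 peaks of highest fold per list, pairs with a peak were 86.5% and 91.5%, 1 peak over both 81.6% and 87.9%, Taf4-inactivated pairs alone 57, and the start site differences 40.0 and 43.6 points. The count of pairs with a peak in the Taf4-inactivated list alone thus depended most on the threshold, and the cause was not tested. A −log10 q of at least 5 was met by a larger part of all Taf4-inactivated peaks (upper quartile 5.76) than of all control peaks (3.00).

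With no flank, 93.7% of control pairs had a peak and 18 pairs did in the Taf4-inactivated list alone. With start sites at most 500 bp apart, 1 peak over both was found at 92.0% and 93.9%. With the start sites of all coding transcripts (1080 pairs), 1 peak over both was found at 88.4% in Taf4-inactivated enteroids, and 23 and 14 pairs had a peak in 1 list alone. Requiring an overlap of 50% of both peaks left 9.21% of control and 8.49% of Taf4-inactivated member peaks without a partner. Ranking by −log10 p left 18 rises of 25 points or more. Start site windows of 100 bp each side gave differences of 38.3 and 40.7 points, and other coding genes without another start site within 1000 bp gave 37.8 and 40.5 points. A further 2 alternatives were chosen after seeing the data. Ranking only among matched peaks moved no value beyond its tolerance (57 rises, 17 falls, median difference -0.92 points). With pairs of at least 90% unique words, pairs with a peak were 97.6% in control and 97.0% after inactivation, 1 peak over both 91.4% and 92.9%, and Taf4-inactivated pairs alone 5.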
